A study of Mus musculus with 8 samples.

Results

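The hormone receptors and luminal transcription factors described here are 10 genes that set the identity and hormone response of mammary luminal cells: the steroid receptors Esr1 and Pgr, the prolactin receptor Prlr, the lineage factors Foxa1 and Gata3, the ETS family factors Elf5, Spdef and Ehf, and the prolactin effectors Stat5a and Stat5b. For each gene, the probe that the platform annotation pairs with exactly 1 gene symbol was used, and the brightest one where several existed. Such a probe was found for 9 of the 10 genes, of 22180 genes with such a probe in all, and all 9 passed the filter on dim genes among 16635 tested genes. Prlr was not analysed here, because the annotation used gave it no such probe.

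Primary mammary tumours had been collected from FVB transgenic animals, and their RNA was measured on Affymetrix whole-transcript arrays, 1 array per tumour. The genotype label was NeuNT for 4 tumours and NeuNT/H1074R for the other 4, and the tumours of both groups therefore carried NeuNT, an activated form of the Neu (ErbB2) receptor, with no treatment in either group. According to the series title the second group adds a mutation of the catalytic PI3K subunit encoded by Pik3ca, with the residue numbered differently there than in the sample labels, whose spelling is kept here. The labels do not state the promoters that drive the alleles, the ages of the mice, or whether tumours came from separate mice, so the p-values below measure the spread between tumours. Array medians lay between 4.81 and 4.87, and the 10 luminal epithelial markers, keratins, claudins, Epcam, Cdh1 and Muc1, averaged 9.27 to 10.11 on the log2 scale in every tumour.

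In the mammary gland, oestrogen and progesterone act on a subset of luminal cells that contain the oestrogen receptor α (Esr1) and the progesterone receptor (Pgr), and these hormone-sensing cells pass the signal to their neighbours through secreted factors. Foxa1 is a pioneer factor that opens chromatin for the oestrogen receptor, and Gata3 maintains luminal differentiation and in human breast cancer cells takes part in a mutual loop with ESR1. Elf5 directs the separate alveolar lineage, in which prolactin acts through its receptor, the kinase Jak2 and the transcription factors Stat5a and Stat5b to turn on milk genes.

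The promoters of Foxa1, Esr1, Pgr and Gata3 are shown because these 4 genes were highest and second highest in the same tumours. Each sequence is the 250 bases before the most upstream annotated start in RefSeq (mouse GRCm38.p6), read 5′ to 3′ on the gene's strand, and capitals mark a match to a searched motif. They cover chr12:57546112-57546361 on the minus strand for Foxa1, chr10:4611739-4611988 on the plus strand for Esr1, chr9:8899583-8899832 on the plus strand for Pgr and chr2:9878601-9878850 on the minus strand for Gata3.
Foxa1: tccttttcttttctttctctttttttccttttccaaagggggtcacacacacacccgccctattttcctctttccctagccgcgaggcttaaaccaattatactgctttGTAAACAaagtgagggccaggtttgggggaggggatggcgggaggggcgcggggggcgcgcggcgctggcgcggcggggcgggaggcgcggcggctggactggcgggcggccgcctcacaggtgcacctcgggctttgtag
Esr1: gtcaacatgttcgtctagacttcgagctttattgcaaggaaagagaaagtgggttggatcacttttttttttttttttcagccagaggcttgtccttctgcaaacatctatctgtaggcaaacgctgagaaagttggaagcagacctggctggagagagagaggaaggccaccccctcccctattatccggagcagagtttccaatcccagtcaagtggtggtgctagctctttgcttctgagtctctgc
Pgr: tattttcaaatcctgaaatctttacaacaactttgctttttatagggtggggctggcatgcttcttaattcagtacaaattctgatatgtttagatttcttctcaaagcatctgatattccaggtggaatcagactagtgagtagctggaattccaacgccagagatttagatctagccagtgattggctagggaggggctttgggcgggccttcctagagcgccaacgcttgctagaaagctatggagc
Gata3: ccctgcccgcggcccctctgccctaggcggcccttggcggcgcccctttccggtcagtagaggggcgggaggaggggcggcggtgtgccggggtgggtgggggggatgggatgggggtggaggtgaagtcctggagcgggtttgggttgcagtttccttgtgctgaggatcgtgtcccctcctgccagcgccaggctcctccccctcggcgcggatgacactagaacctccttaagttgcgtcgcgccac
The motifs were searched on both strands. They were TGTTTAC for forkhead factors such as Foxa1, AGATAA for GATA factors, GGTCANNNTGACC for a full oestrogen receptor element, AGGTCA for a single arm of that element, which can overlap the full one, TTCNNNGAA for STAT factors and CCGGAAG for ETS factors. The Foxa1 window held 1 forkhead match, on the opposite strand, which began 141 bases before the start. A forkhead match was present in 3.17% of all 32851 RefSeq windows of this length. The Esr1, Pgr and Gata3 windows held none of the letters searched, nor did those of Elf5, Spdef and Stat5b, and Ehf had no entry. The Stat5a window held 1 single arm 46 bases before the start, a match present in 14% of all windows, while GATA, STAT, ETS and full oestrogen receptor matches were present in 9.99%, 7.02%, 6.91% and 0.0639% of them.

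None of the 9 genes differed between genotypes at an adjusted p under 0.05 (limma, Benjamini-Hochberg over 16635 genes), where 0% of all tested genes were called. Means were higher in NeuNT/H1074R for 2 of them, Spdef and Ehf, and lower for 7, with a median log2 difference of −0.06 against −0.0027 over all tested genes. None of the 9 passed an unadjusted p under 0.05 either, where 3.82% of tested genes did, and none had genotype values that did not overlap, where 2.69% of tested genes had (1.59% higher and 1.10% lower in NeuNT/H1074R). Adjusted p-values (limma) ran from 0.978 to 0.998. The SD was larger in NeuNT than in NeuNT/H1074R for 7 of the 9 genes.

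**Figure D1:**
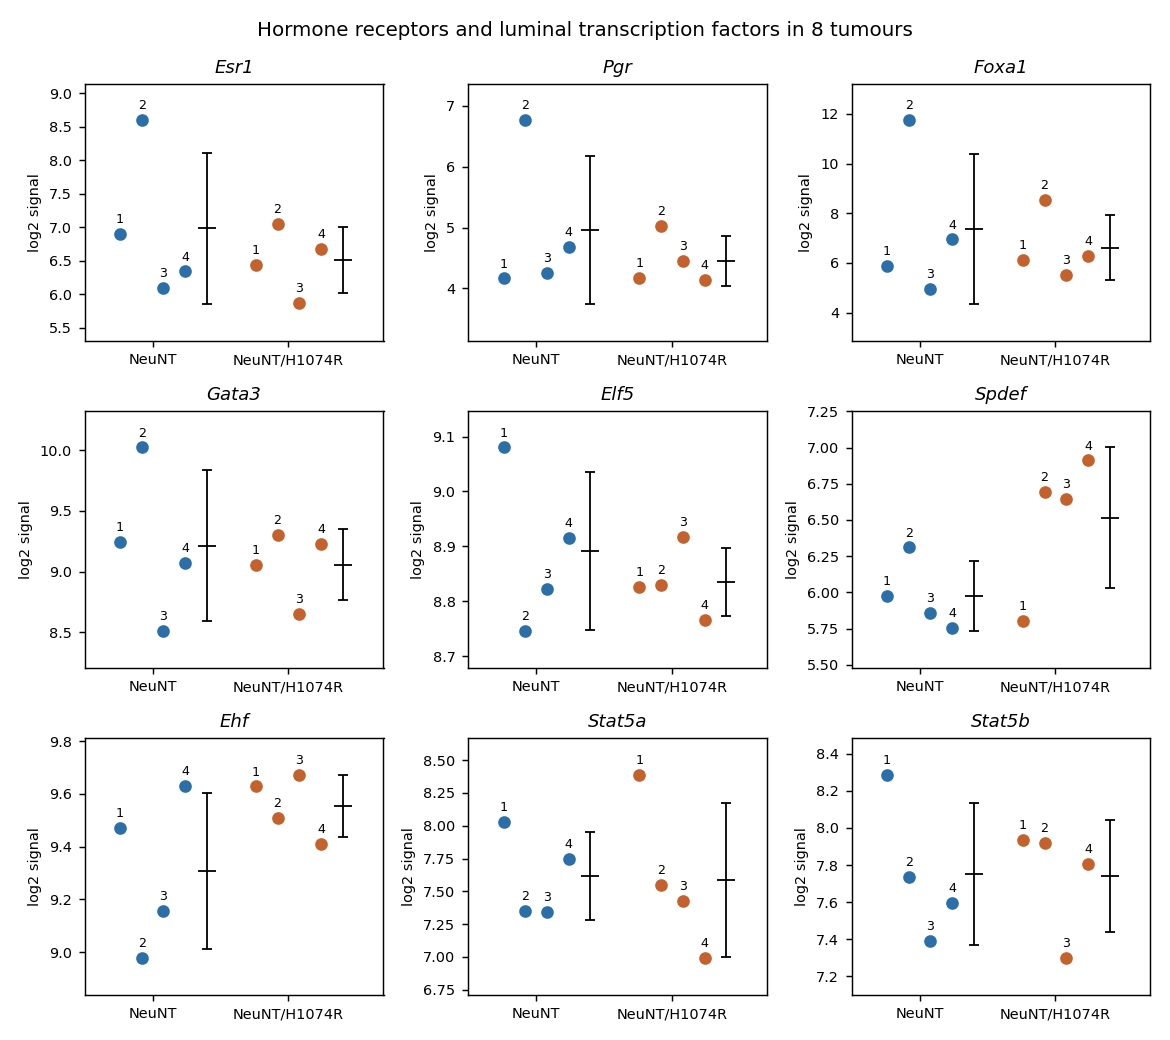
Log2 signal of the 9 measured genes in each tumour, with points numbered by replicate, the bar at the genotype mean and whiskers of 1 SD (n = 4); each panel has its own vertical axis. Replicate 2 of NeuNT lies above every other tumour for Esr1, Pgr, Foxa1 and Gata3 and below every other tumour for Elf5 and Ehf.

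The oestrogen receptor gene Esr1 varied widely among tumours of 1 genotype. Its log2 signal was 6.89, 8.60, 6.10 and 6.34 in NeuNT replicates 1 to 4 and 6.44, 7.04, 5.86 and 6.68 in NeuNT/H1074R replicates 1 to 4. NeuNT replicate 2 stood 1.55 log2 units above the next tumour, NeuNT/H1074R replicate 2, and the other values of both genotypes overlapped. The means were 6.98 ± 1.13 (SD, n = 4) in NeuNT and 6.51 ± 0.49 (SD, n = 4) in NeuNT/H1074R. The log2 difference, NeuNT/H1074R minus NeuNT, was −0.48 ± 0.53 (SE), with a 95% interval of −1.67 to 0.72 (limma adjusted p = 0.978). Without NeuNT replicate 2 it was 0.06, with the opposite sign. Over all 8 tumours the SD of Esr1 was 0.844, larger than that of 94.9% of tested genes.

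The progesterone receptor gene Pgr, itself a target of the oestrogen receptor, was dim in most tumours. Its log2 signal was 4.17, 6.76, 4.26 and 4.68 in the 4 NeuNT tumours and 4.17, 5.02, 4.46 and 4.14 in the 4 NeuNT/H1074R tumours. Replicate 2 of NeuNT was again highest and replicate 2 of NeuNT/H1074R second, 1.74 apart, while 4 tumours lay between 4.14 and 4.26, close to 4.06, the mean below which genes were left out as dim. The log2 difference was −0.52 ± 0.54 (SE; 95% interval −1.76 to 0.72; limma adjusted p = 0.978), and 0.08 without NeuNT replicate 2. In bulk tumour RNA, fewer cells of a type and less RNA per cell cannot be told apart, for these receptors and for every gene below.

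Foxa1 had the widest range of the 9 genes. Its log2 signal was 5.89, 11.74, 4.94 and 6.95 in NeuNT and 6.14, 8.53, 5.53 and 6.28 in NeuNT/H1074R. The value in NeuNT replicate 2 stood 3.20 log2 units above that in NeuNT/H1074R replicate 2, which in turn was above the remaining 6 tumours. The range over the 8 tumours was 6.80 log2 units, and the SD of 2.19 was larger than that of 99.8% of tested genes. The means were 7.38 ± 3.02 (SD, n = 4) in NeuNT and 6.62 ± 1.32 (SD, n = 4) in NeuNT/H1074R. The log2 difference of −0.76 ± 1.39 (SE) had a 95% interval of −3.92 to 2.40 (limma adjusted p = 0.981), so with 4 tumours per genotype it covered differences of several log2 units in either direction. It was 0.70 without NeuNT replicate 2, and 0.06 without both tumours of highest Foxa1, an alternative chosen after seeing the data.

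Gata3 was bright in every tumour and varied less. Its log2 signal was 9.25, 10.02, 8.51 and 9.08 in NeuNT and 9.05, 9.30, 8.65 and 9.23 in NeuNT/H1074R. The same tumours were highest and second, 0.72 apart, and the genotypes overlapped throughout. The log2 difference was −0.16 ± 0.30 (SE; 95% interval −0.85 to 0.53; limma adjusted p = 0.984), and 0.11 without NeuNT replicate 2. Gata3 was the only one of the 9 genes with a second single-symbol probe, which read 5.72 to 6.39 over the 8 tumours, was also highest in NeuNT replicate 2 and gave a log2 difference of 0.17, opposite in sign.

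**Figure D2:**
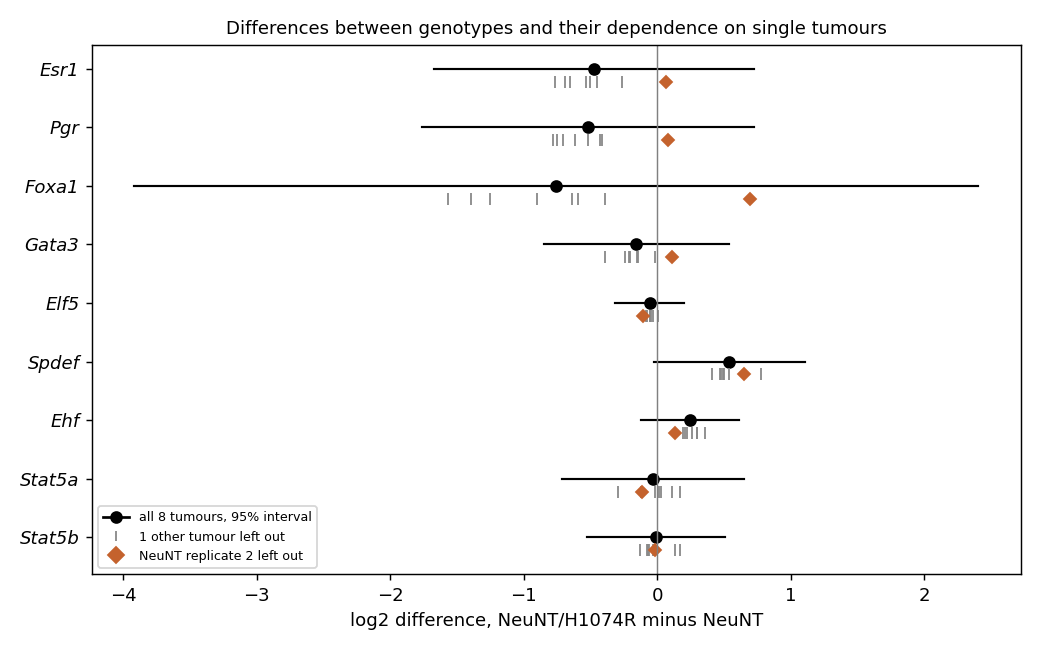
Log2 difference, NeuNT/H1074R minus NeuNT, with its 95% interval over all 8 tumours (black), the values with 1 other tumour left out (grey ticks) and the value with NeuNT replicate 2 left out (orange diamonds). Every interval spans 0, and for Esr1, Pgr, Foxa1 and Gata3 the diamond lies on the other side of 0 from the full estimate.

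Of the ETS factors, Elf5 and Ehf were steadier, and Elf5 was among the least variable genes. Spdef had an SD over the 8 tumours of 0.458, as did Gata3. Elf5 read 9.08, 8.75, 8.82 and 8.92 in NeuNT and 8.83, 8.83, 8.92 and 8.77 in NeuNT/H1074R. Its whole range was 0.334 log2 units, its SD over the 8 tumours of 0.107 exceeded that of 4.33% of tested genes, and its lowest value was in NeuNT replicate 2. The log2 difference was −0.06 ± 0.11 (SE), with the narrowest 95% interval of the 9 genes, −0.31 to 0.20 (limma adjusted p = 0.986).

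Ehf, an epithelial ETS factor encoded next to Elf5 on chromosome 2, was also lowest in NeuNT replicate 2. It read 9.47, 8.98, 9.16 and 9.63 in NeuNT and 9.63, 9.51, 9.67 and 9.41 in NeuNT/H1074R. All 4 NeuNT/H1074R tumours stood above NeuNT replicates 2 and 3, and they overlapped with replicates 1 and 4. The log2 difference was 0.25 ± 0.16 (SE; 95% interval −0.12 to 0.61; limma adjusted p = 0.978), and 0.14 without NeuNT replicate 2.

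Spdef, an ETS factor of luminal and secretory epithelium, had the lowest unadjusted p of the 9 genes. It read 5.98, 6.31, 5.86 and 5.75 in NeuNT and 5.80, 6.69, 6.65 and 6.91 in NeuNT/H1074R. Replicates 2, 3 and 4 of NeuNT/H1074R lay above every NeuNT tumour and replicate 1 lay below 3 of the 4. The log2 difference was 0.54 ± 0.25 (SE), with a 95% interval of −0.03 to 1.11, an unadjusted limma p of 0.0596 and a limma adjusted p of 0.978. It ranged from 0.41 to 0.78 over the alternatives that gave a value.

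Stat5a and Stat5b, neighbours on chromosome 11 that carry the prolactin signal to the nucleus, had nearly equal means in both genotypes. Stat5a read 8.03, 7.35, 7.34 and 7.74 in NeuNT and 8.39, 7.55, 7.42 and 6.99 in NeuNT/H1074R, so that NeuNT/H1074R held both the highest and the lowest tumour. Its log2 difference was −0.03 ± 0.30 (SE; 95% interval −0.71 to 0.65; limma adjusted p = 0.997). Stat5b read 8.29, 7.74, 7.39 and 7.60 in NeuNT and 7.94, 7.92, 7.30 and 7.81 in NeuNT/H1074R, with a log2 difference of −0.01 ± 0.23 (SE; 95% interval −0.53 to 0.50; limma adjusted p = 0.998). Each gene had its 2 highest values in replicate 1 of the genotypes, and their correlation is given with the others below.

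The tumour-to-tumour pattern was compared for all 36 pairs of the 9 genes. Pearson's r was above 0 for 19 pairs, and 4 pairs passed an adjusted p under 0.05 by an exact two-sided permutation test over the 8 tumours with Benjamini-Hochberg adjustment over the 36 pairs. Esr1 and Gata3 correlated at r = 0.953 (exact permutation p = 0.000347, adjusted p = 0.0125), and at Spearman's rho = 0.952 (exact permutation adjusted p = 0.0411), the only pair to pass by rank. Pgr and Foxa1 correlated at r = 0.955 (exact permutation p = 0.00379, adjusted p = 0.0455), with a rho of 0.571 (exact permutation adjusted p = 0.560). The pair Esr1 and Foxa1 gave r = 0.927 (exact permutation p = 0.00508, adjusted p = 0.0458) and a rho of 0.762 (exact permutation adjusted p = 0.441). For Foxa1 and Gata3, r was 0.900 (exact permutation p = 0.00139, adjusted p = 0.0250) and rho 0.833 (exact permutation adjusted p = 0.277). With each genotype's mean removed, the same 4 pairs passed, at r from 0.897 to 0.961. With n = 4 per genotype, a correlation within 1 genotype was not tested.

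The relations were recomputed with tumours left out. Esr1 and Gata3 kept a high r, 0.901 without NeuNT replicate 2 (exact permutation p = 0.00417, adjusted p = 0.150) and 0.868 without the 2 tumours farthest from the median of the first gene (exact permutation p = 0.00278, adjusted p = 0.100). Those 2 were NeuNT replicate 2 and NeuNT/H1074R replicate 3 for Esr1, and replicate 2 of both genotypes for Pgr and Foxa1, so these values are not like for like. For Pgr and Foxa1, r was 0.807 without NeuNT replicate 2 (exact permutation p = 0.0304, adjusted p = 0.273). It was 0.398 without the 2 farthest tumours (exact permutation p = 0.410), so the high r depended on those 2. In the tumours left, Pgr read 4.14 to 4.68, near the dim limit of 4.06. Esr1 and Foxa1 gave 0.678 (exact permutation p = 0.0865) and 0.662 (p = 0.149), and Foxa1 and Gata3 gave 0.717 (exact permutation p = 0.0633) and 0.746 (p = 0.0875). No pair passed the adjusted threshold without NeuNT replicate 2. With 6 tumours the smallest exact p is 0.00139, which for a lone pair adjusts to 0.05 over the 36 pairs, so the lack of calls without the 2 farthest tumours says nothing about stability. Without NeuNT/H1074R replicate 1 no pair passed either, although there all 4 values were 0.902 or higher. Esr1 and Pgr, the receptor and its target, fell from r = 0.868 over 8 tumours (exact permutation adjusted p = 0.268) to 0.230 without NeuNT replicate 2. Gata3 and Pgr likewise went from 0.779 to 0.213.

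Elf5 and Ehf were correlated at r = 0.481 (exact permutation adjusted p = 0.527) and Stat5a and Stat5b at r = 0.494 (exact permutation adjusted p = 0.527), and neither pair of neighbours passed. For Elf5 and Ehf, rho was 0.714 (exact permutation adjusted p = 0.518). With each genotype's mean removed, their r was 0.776 (exact permutation adjusted p = 0.113), and without NeuNT replicate 2 it was 0.253. Ehf had negative r with Esr1 (−0.67), Pgr (−0.63), Foxa1 (−0.53) and Gata3 (−0.46), none of which passed (exact permutation adjusted p from 0.308 to 0.527), and without NeuNT replicate 2 these were −0.05, 0.29, 0.35 and 0.30. Spdef and Stat5a had the most negative r between the other genes, −0.67 (exact permutation adjusted p = 0.308), and −0.68 without that tumour.

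**Figure D3:**
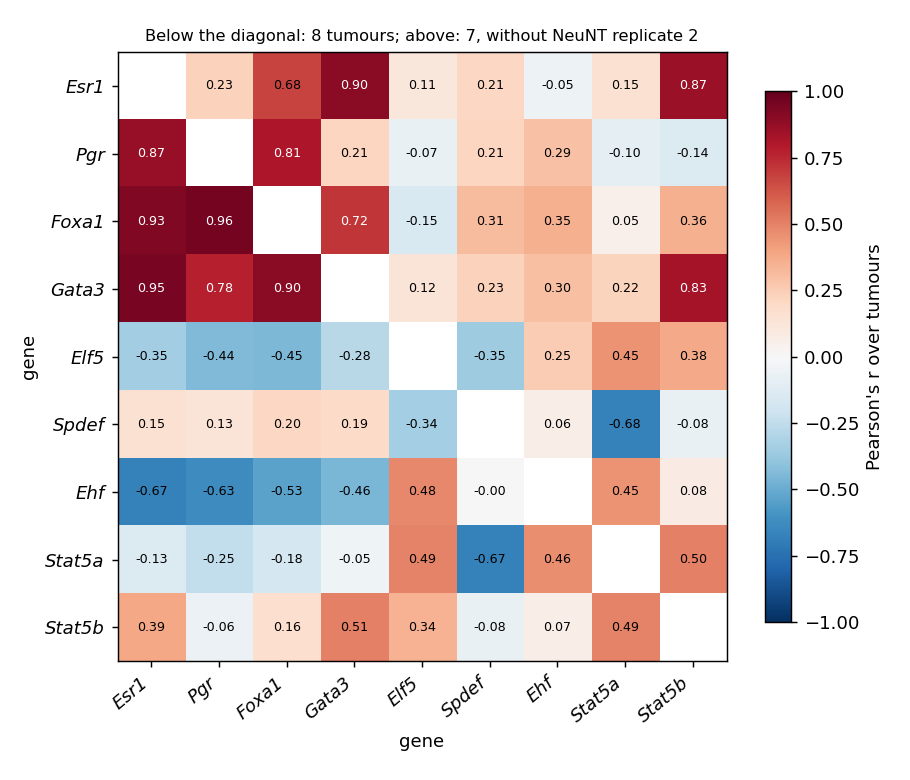
Pearson's r between pairs of the 9 genes over 8 tumours (below the diagonal) and over the 7 tumours other than NeuNT replicate 2 (above it). The block of Esr1, Pgr, Foxa1 and Gata3 is dark red below the diagonal, with r from 0.78 to 0.96, and spans 0.21 to 0.90 above it.

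The genes with the most similar pattern over the 8 tumours were sought among the other 16634 tested genes by Pearson's r, as a description without a test. Closest to Esr1 was the kinase gene Hipk2 (r = 0.981), followed by Lrrc32 (0.981), whose product holds latent TGF-β at the cell surface, and the cytokine co-receptor Il6st (0.978). Hipk2 read 8.57, 9.97, 8.08 and 8.20 in NeuNT and 8.23, 8.46, 7.95 and 8.31 in NeuNT/H1074R, with the highest value in the same tumour as Esr1. Closest to Pgr were the growth factor receptor Fgfr2 (0.984), Dapp1 (0.983) and the serotonin receptor Htr4 (0.982). Fgfr2 read 5.22, 10.50, 5.47 and 6.58 in NeuNT and 5.69, 7.03, 6.26 and 4.62 in NeuNT/H1074R, with NeuNT replicate 2 highest and NeuNT/H1074R replicate 2 second, as for Pgr. Closest to Foxa1 were the integrin gene Itgae (0.990), the histone gene H1f3 (0.988) and Psd2 (0.979). Lrrc32 stood in the list of Gata3 as well, at 0.972, behind Mtmr11 (0.983) and Slc25a30 (0.975). Without NeuNT replicate 2, r was between 0.855 and 0.970 for these genes, of which Dapp1 was lowest. Since the genes were picked by r over 8 tumours that include these 7, high values follow in part from that choice.

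The other 5 genes were closest to other sets of genes. Elf5 was closest to Lockd (0.973), Parpbp (0.973) and the histone gene H4f16 (0.961), of which Parpbp read 4.94 in NeuNT replicate 2, its lowest, and 5.83 in NeuNT replicate 1, its highest, as Elf5 did. Spdef was closest to Defa21 (0.977), the ectodysplasin gene Eda (0.959) and Stt3b (0.959), a subunit of the enzyme that attaches sugar chains to secreted proteins. Stt3b read 9.71, 9.82, 9.73 and 9.60 in NeuNT and 9.66, 9.92, 10.05 and 10.20 in NeuNT/H1074R, where replicates 2 to 4 were above all NeuNT tumours and replicate 1 was not. Ehf was closest to Fgf22 (0.970), Cdh24 (0.956) and Gal3st3 (0.955), Stat5a to Uhrf2 (0.963), Kmt5c (0.959) and Ankrd28 (0.925), and Stat5b to Cpsf4l (0.979), Oxsm (0.963) and Zmiz2 (0.962).

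Targets of the oestrogen receptor did not separate the genotypes. Of 11 tested genes, 6 had a higher and 5 a lower mean in NeuNT/H1074R, none passed the adjusted or the unadjusted threshold (limma), and the median log2 difference was 0.01, and leaving out 1 tumour at a time gave −0.15 to 0.11. In NeuNT replicate 2, 5 of the 11 were at their highest, where 15.8% of all tested genes were highest in that tumour. Cited1, a transcriptional co-regulator found in hormone-sensing cells, read 8.23 there and 6.04 to 6.80 in the other 7 tumours. The secreted glycoprotein gene Stc2 read 8.58 against 6.30 to 7.11, and the receptor kinase gene Ret 6.72 against 4.75 to 6.12. Not every target followed, since Xbp1, a factor of the secretory pathway, read 10.31 there against 11.12 to 11.87 elsewhere, and Tff1 read 5.34 against 5.25 to 5.82. Greb1, a classical target, had a mean under the filter on dim genes and was not tested.

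Progesterone receptor targets and paracrine signals had a median log2 difference of 0.14, with 5 of 7 tested genes higher and 2 lower. None passed the adjusted threshold, and 1, Tnfsf11, passed the unadjusted one (limma), as did 3.82% of all tested genes. The median was 0.31 without NeuNT replicate 2, 0.32 without NeuNT replicate 3 and −0.01 without NeuNT replicate 4. Tnfsf11 (RANKL), the factor through which progesterone drives the growth of neighbouring cells, was dim, at 4.17, 4.36, 4.48 and 4.36 in NeuNT and 4.74, 4.73, 4.40 and 4.74 in NeuNT/H1074R. Its log2 difference was 0.31 ± 0.11 (SE; limma adjusted p = 0.978), and NeuNT/H1074R replicate 3 lay within the NeuNT range. Wnt4, a ligand induced by progesterone, read 7.13 in NeuNT replicate 2 against 4.88 to 6.34 elsewhere. The Wnt agonist gene Rspo1 read 7.65 there against 5.76 to 6.99, so that 2 paracrine genes of this list shared the highest tumour with Pgr while Tnfsf11 did not. With Zbtb16 (7.13 against 5.14 to 6.17), 3 of the 7 were highest there, where 15.8% of all tested genes were. The list averaged 7.24 in NeuNT replicate 2 and 7.17 in NeuNT/H1074R replicate 2, with the next tumour at 6.91. Its median deviation was −0.10 and 0.45 in these 2 tumours.

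**Figure D4:**
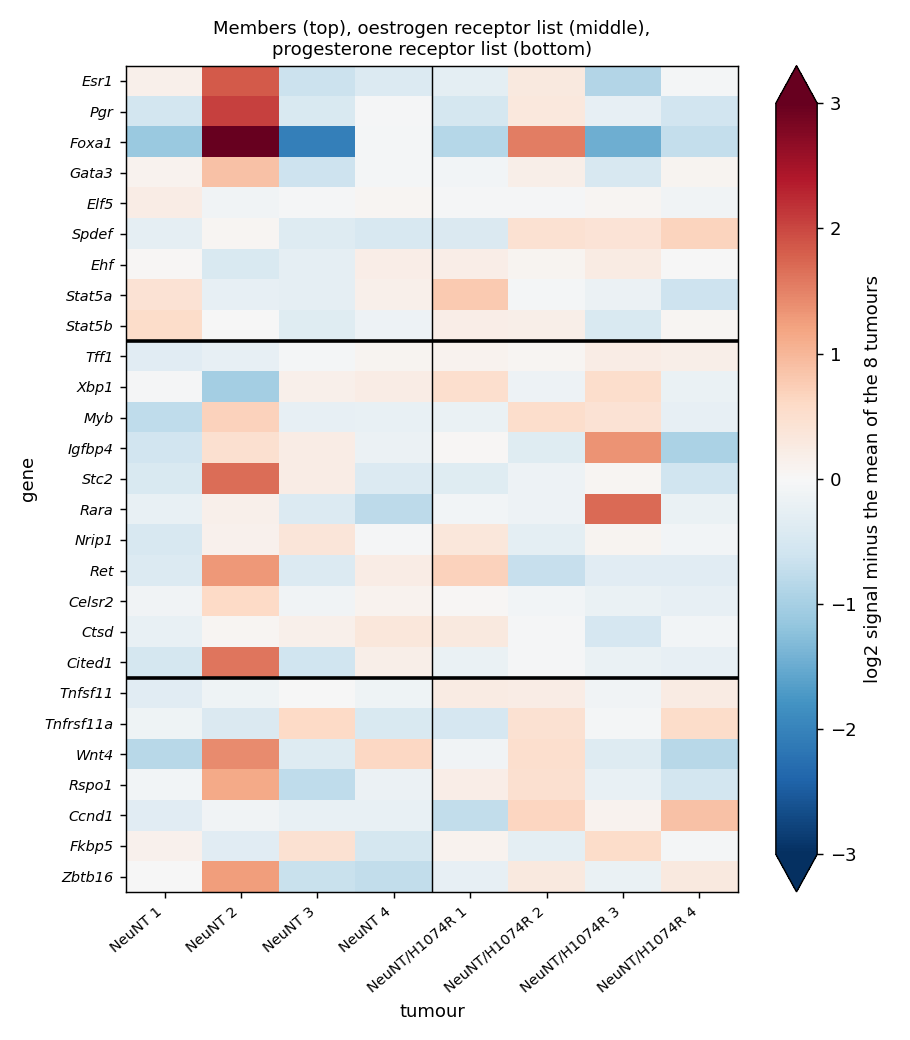
Log2 signal minus the gene's mean over the 8 tumours for the 9 genes (top block), tested targets of the oestrogen receptor (middle) and of the progesterone receptor (bottom); colours saturate at 3 log2 units. Red cells gather in the column of NeuNT replicate 2 for Esr1, Pgr, Foxa1, Gata3, Stc2, Ret, Cited1, Wnt4, Rspo1 and Zbtb16, and not for Xbp1 or Tnfsf11.

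Genes of prolactin receptor signalling showed 6 higher and 6 lower means among 12 tested, with a median log2 difference of 0.03 and none past the adjusted or unadjusted threshold (limma). Cish, a feedback inhibitor induced by Stat5, stayed between 5.36 and 5.85 in all 8 tumours. Socs2, another feedback inhibitor, read 10.65, 7.98, 10.43 and 7.84 in NeuNT and 7.39, 10.45, 8.51 and 10.24 in NeuNT/H1074R. It was above 10 in 2 tumours of each genotype, and the order did not follow Stat5a, which was highest where Socs2 was lowest, in NeuNT/H1074R replicate 1.

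Milk genes, which Stat5 and Elf5 activate in the alveolar lineage, had a median log2 difference of −2.03 over 9 tested genes, with 8 lower and 1 higher. The genotypes overlapped, with a summed log2 level of 75.8 to 92.5 in NeuNT and 63.9 to 84.5 in NeuNT/H1074R. The list's median deviation was 1.02 in NeuNT/H1074R replicate 1 and −0.69 in NeuNT replicate 3. Where 2.69% of all tested genes had genotype values that did not overlap, 0 of these 9 did. None passed the adjusted threshold, and 3 passed the unadjusted one (limma), Csn1s1, Csn1s2a and Btn1a1, at −2.88, −3.22 and −2.40. Over all 11 measured milk genes, with no filter on dim genes, the median was −1.30. Over the same 8 tumours Elf5 spanned 0.334 log2 units, Stat5b 0.989 and Stat5a 1.4005. The lowest tumour for Stat5a, NeuNT/H1074R replicate 4, was also the lowest for Csn1s1 (6.11), Csn2 (7.30) and Btn1a1 (5.14). It was not the lowest for any other tested milk gene. Lalba was lowest in NeuNT/H1074R replicate 2, Glycam1 in NeuNT replicate 3, and Csn3, Wap and Xdh in NeuNT replicate 2. The highest for Stat5a, NeuNT/H1074R replicate 1, was the highest of its genotype for Csn1s1, Csn2 and Btn1a1, but of all 8 tumours for none. Within NeuNT/H1074R, Csn2 and Btn1a1 kept the tumour order of Stat5a, and Csn1s1 did not. Within NeuNT, Csn2 kept it, and Csn1s1 and Btn1a1 did not. The relation of these genes to Stat5a was not tested. The casein gene Csn1s2a read 11.45, 7.92, 6.48 and 11.19 in NeuNT and 9.26, 5.65, 4.29 and 4.98 in NeuNT/H1074R. Its highest tumour, NeuNT replicate 1, was also the highest for Elf5 and Stat5b, and the lowest, NeuNT/H1074R replicate 3, was the lowest for Stat5b but second highest for Elf5.

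Other luminal transcription factors had 8 higher and 6 lower means among 14 tested genes, a median log2 difference of 0.02 and none past either threshold (limma). Bhlha15 (Mist1), a factor of secretory cells, read 6.89, 5.41, 6.86 and 6.26 in NeuNT and 6.34, 7.55, 7.33 and 7.85 in NeuNT/H1074R, with replicates 2 to 4 above all NeuNT tumours as for Spdef. Its log2 difference was 0.91, and 0.60 without NeuNT replicate 2. Tfap2b, an AP-2 factor, read 8.90 and 8.87 in NeuNT replicates 1 and 2 and 3.44 to 4.72 in the other 6 tumours. Tbx3, a factor of hormone-sensing cells, read 8.03 in NeuNT replicate 2 against 5.49 to 6.19 in the rest, and Msx2 7.04 against 4.03 to 5.59.

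Among other nuclear receptors, 12 of 13 tested genes had a higher mean in NeuNT/H1074R, where 8229 of all 16635 tested genes had. Several of these differences were smaller than their SE. The median log2 difference was 0.12, and it was 0.25 without NeuNT replicate 2 and 0.062 without NeuNT replicate 3. None passed the adjusted threshold (limma). The unadjusted one, passed by 3.82% of all tested genes, was passed by 2, the thyroid hormone receptor gene Thra at 1.11 and the fatty acid receptor gene Ppara at 0.50. Thra read 6.35, 6.90, 6.24 and 6.10 in NeuNT and 7.95, 6.78, 8.37 and 6.94 in NeuNT/H1074R, high in the same 2 tumours, replicates 1 and 3, in which skeletal muscle markers averaged 7.31 and 7.18 against 4.97 to 5.58 elsewhere. All 7 tested muscle markers had a higher mean in NeuNT/H1074R, their summed log2 level ran from 34.8 to 39.1 in NeuNT and from 36.1 to 51.2 in NeuNT/H1074R, and their part in the Thra values was not tested. The retinoic acid receptor gene Rara, listed among the oestrogen receptor targets, read 9.46 in NeuNT/H1074R replicate 3 and 6.97 to 7.91 in the other tumours, with a log2 difference of 0.63, and 0.17 without that tumour. Coregulators of these receptors had 6 higher and 4 lower means among 10 tested genes, with a median of 0.04 and none past either threshold (limma).

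Chromosome 11 also carries Erbb2, and the order of genes was taken from RefSeq. Thra lay 12 measured genes from Erbb2, Rara 18 and the Stat5b and Stat5a pair 100. The 4 measured genes on each side of the Stat5 pair had ranges of 0.379 to 1.504 log2 units over the 8 tumours, none passed the adjusted threshold (limma), and Naglu had the widest range. Naglu read 8.59, 8.17, 7.32 and 7.46 in NeuNT and 7.99, 8.45, 7.09 and 8.51 in NeuNT/H1074R, with its lowest and its highest value in the same tumours as Stat5b. Stat3, a signal transducer activated by cytokines, adjoins Stat5a and kept within 10.82 to 11.31. Around Ehf and Elf5 the 8 nearest measured genes ranged over 0.404 to 1.68 log2 units and none passed (limma). The widest was the adhesion receptor gene Cd44, lowest in NeuNT replicate 1 at 9.04 and 9.97 to 10.72 elsewhere, a tumour in which Elf5 was highest.

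Markers of some other cell types were also high in NeuNT replicate 2, where Esr1, Pgr, Foxa1 and Gata3 were highest. Of all tested genes, 15.8% were highest in that tumour. Of 8 tested basal and myoepithelial markers, 6 were at their highest in NeuNT replicate 2, and the list's summed log2 level ran from 51.8 to 77.4 in NeuNT and from 53.0 to 72.1 in NeuNT/H1074R. The smooth muscle myosin gene Myh11 read 10.79 in that tumour against at most 7.63 in the other 7, and calponin (Cnn1) read 11.53 against 5.50 to 8.42. Smooth muscle actin (Acta2) read 12.27 against 9.64 to 11.23. The basal keratin genes did not follow, as Krt14 read 9.37 there against 12.04 in NeuNT replicate 4 and 12.49 and 11.73 in NeuNT/H1074R replicates 1 and 3, and Krt17 read 7.39 against 10.77, 12.45 and 12.19 in these. Trp63, a basal lineage factor, was nearly equal in NeuNT replicates 2 and 4, both at 8.44. Endothelial markers were highest there for 5 of 6 (summed 40.3 to 46.1 in NeuNT, 41.8 to 43.6 in NeuNT/H1074R) and fibroblast markers for 3 of 8 (63.4 to 74.3 and 62.6 to 69.8). Adipocyte markers were highest there for 2 of 7, and their median deviation was 1.169 there and 1.196 in NeuNT replicate 1. The adipocyte list averaged 6.16 in NeuNT/H1074R replicate 2, the highest of that genotype, all 7 markers had a lower mean in NeuNT/H1074R, and the summed level ran from 39.8 to 51.0 in NeuNT and from 35.5 to 43.1 in NeuNT/H1074R. In NeuNT replicate 2, macrophage markers were highest for 2 of 8 and T and B cell markers for 2 of 6. Squamous markers were highest there for 0 of 9 and skeletal muscle markers for 0 of 7. The part of these markers in the values of the 4 genes was not tested.

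Luminal lists differed from one another in that tumour. Hormone-sensing markers were highest there for 3 of 5 tested genes, Cited1, Tbx3 and Wnt4, which other lists above also hold, and the list averaged 7.23 there against 5.89 to 6.46 elsewhere (summed 29.5 to 36.2 in NeuNT, 29.8 to 32.3 in NeuNT/H1074R). General luminal markers were highest there for 0 of 10 (summed 96.0 to 97.5 in NeuNT and 92.7 to 101.1 in NeuNT/H1074R), and luminal progenitor markers for 1 of 10 (91.8 to 95.7 and 91.5 to 93.2). Erbb2 read 8.73 in that tumour, its lowest value, against 8.89 to 10.28 elsewhere. NeuNT/H1074R replicate 2, second for the 4 genes, averaged 6.46 for the hormone-sensing list. That was second to NeuNT replicate 2, with NeuNT replicate 3 next at 6.31. The list's median deviation was 0.02 in NeuNT/H1074R replicate 2 against 1.42 in NeuNT replicate 2. Cited1 and Wnt4 were second highest in NeuNT replicate 4, and Tbx3 in NeuNT/H1074R replicate 1. For the basal list NeuNT/H1074R replicate 2 averaged 6.64, where the other tumours ran from 6.47 to 9.675.

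**Figure D5:**
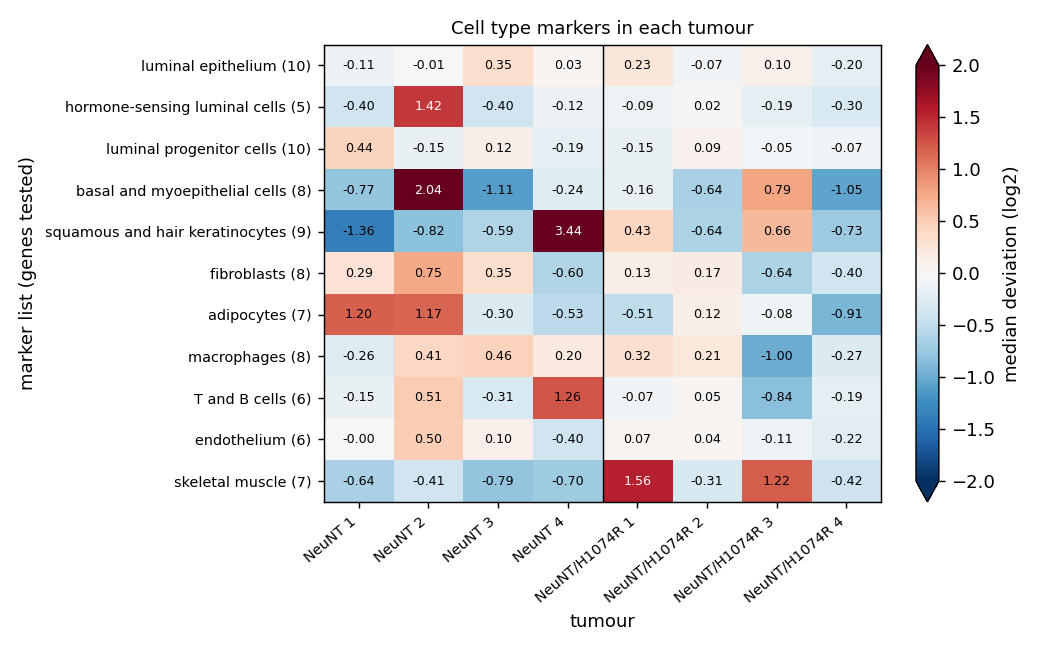
Median deviation of each list of cell type markers from its genes' means over the 8 tumours, in log2 units, with the number of tested genes in brackets; colours saturate at 2 log2 units. In the column of NeuNT replicate 2 the hormone-sensing list stands at 1.42 and the basal list at 2.04, while the general luminal list stands at −0.01.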

How the data were processed

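RNA of 8 mammary tumours, 4 per genotype, was measured on Affymetrix whole-transcript arrays. The deposited log2 values were used as the authors gave them; the submitters' processing notes name Affymetrix Expression Console and Transcriptome Analysis Console, and how background and arrays were corrected is not stated there. Of 41345 probes, 23521 had 1 gene symbol, 1814 several and 16010 none, and only the first kind was used, with the probe of highest mean for each gene. The 25% of genes with the lowest means (5545 genes, below 4.06) were left out. Replicate numbers follow the order of deposition and pair no tumours.

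NeuNT/H1074R was compared with NeuNT in limma 3.58.1 (R 4.3.3; lmFit, eBayes with an intensity trend) over 16635 genes, with Benjamini-Hochberg adjustment and a threshold of 0.05. The fit was tested on simulated data. Its median 95% interval reached 0.395 log2 units to each side; precision is limited by the number of arrays. Pairwise correlations used exact permutation tests over the tumours. Promoters came from RefSeq (GRCm38.p6), where 9 of the 10 genes had an entry.

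The members and gene lists were chosen with earlier results of these data known. Named genes were the members, any gene of the oestrogen receptor, progesterone receptor, prolactin and milk lists, up to 4 genes of smallest unadjusted p from each other list, the 3 genes of highest r with each member, and the neighbours. Predicted or clone names and olfactory or vomeronasal receptors were not named. Tfap2b, Tbx3, Msx2 and the basal markers named were chosen after their values were seen. Alternatives left out each tumour, normalized or centred the arrays, changed the filter, averaged probes, dropped the trend or weighted arrays.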

Additional observations from a re-analysis of the deposited data

Results flagged for a closer look

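Of 120 groups of 4 tumours, over the genes looked at here, 10 had 1 tumour far from the other 3; a check of this kind picks out about 1 group in 20 by chance, and many of these genes were chosen for their values. In NeuNT the tumour apart was replicate 2 for Tbx3 (8.03, with the next tumour at 5.98), Htr4 (9.37, next 4.95), Myh11 (10.79, next 6.80) and Acta2 (12.27, next 10.37), and replicate 1 for Cd44, at the low end (9.04, next 10.52). In NeuNT/H1074R it was replicate 3 for Rara (9.46, next 7.68), for Myh11 (7.63, next 6.50) and, at the low end, for Tnfsf11 (4.40, next 4.73). Replicate 4 stood apart for Esrra, the orphan receptor ERR alpha, at the high end (7.22, next 7.07) and for Med1, a coactivator subunit encoded near Erbb2, at the low end (8.55, next 11.02). None of the 9 measured hormone receptor and luminal factor genes was among them, since the gap to the next tumour was smaller relative to the group's range.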

How the results depend on the processing

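Under 16 alternatives the 9 measured genes gave 143 values (Pgr gave none under the 50% filter), of which 126 kept their direction, 17 changed it and 0 passed the threshold (lowest limma adjusted p 0.821). With single tumours left out, the log2 differences ranged from -0.77 to 0.062 for Esr1, -0.78 to 0.081 for Pgr, -1.57 to 0.70 for Foxa1, -0.39 to 0.11 for Gata3, -0.10 to 0.0068 for Elf5, 0.41 to 0.78 for Spdef, 0.14 to 0.35 for Ehf, -0.30 to 0.17 for Stat5a and -0.13 to 0.17 for Stat5b. The sign turned without NeuNT replicate 2 for Esr1, Pgr, Foxa1 and Gata3, and the cause was not tested. Without both tumours of highest Foxa1, chosen after seeing the data, Foxa1 stood at 0.058 and Gata3 at 0.030; with averaged probes Gata3 stood at 0.0050; with quantile normalization Stat5a and Stat5b stood at 0.0070 and 0.023, and Stat5b at 0.023 with array weights. No gene passed the adjusted threshold under any alternative, and the count with an unadjusted p under 0.05 was 635, 373 to 923 with single tumours left out, 358 under the 50% filter and 936 with no filter.

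The number of pairs that passed was 4 over all 8 tumours, 0 without NeuNT replicate 2 or without NeuNT/H1074R replicate 1, and 1 to 3 without any other tumour, tests added after seeing the data. It was 0 without the 2 farthest tumours, where 6 tumours leave a lone pair no adjusted p below 0.05. With single tumours left out, r ranged from 0.901 to 0.986 for Esr1 and Gata3, 0.678 to 0.964 for Esr1 and Foxa1, 0.807 to 0.969 for Pgr and Foxa1, 0.717 to 0.945 for Foxa1 and Gata3, 0.230 to 0.916 for Esr1 and Pgr, and 0.213 to 0.833 for Pgr and Gata3. Without the 2 farthest tumours, which differed with the first gene of the pair, these were 0.868, 0.662, 0.398, 0.746, 0.347 and -0.23. Stat5a and Stat5b turned to -0.14. Of 288 list medians, 286 moved by less than 1 SD between tumours. That limit is wide, since leaving out 1 tumour can hardly move a median so far, and medians that changed sign counted within it. The milk list stood at -1.30 with no filter on dim genes. Other nuclear receptors reached 0.25 without NeuNT replicate 2 and 0.26 without both tumours of highest Foxa1. Without NeuNT replicate 2 the basal list turned to 0.32 and the hormone-sensing list to 0.08. Of 9 other genes named with a difference, 0 changed direction. No paired analysis was possible because the labels give the genotypes no shared replicate numbers.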
